A study of Mus musculus with 9 samples.

Results

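Immediate early genes are the genes that cells transcribe within minutes of a stimulus, before any new protein has been made. The set described here holds 34 of them, taken from a list of gene names. That list was chosen with earlier results of these data known, so its counts beside all probe sets are not those of a blind choice. It covers the subunits and partners of AP-1, the Egr, Nr4a and Klf transcription factors, the phosphatases that shut off MAP kinases, and further feedback, growth arrest and early response genes. Where several probe sets carried the symbol of a gene and no other, the brightest on average was used. All 34 genes had such a probe set, of 19935 genes with one on the array, 33 of them 1 probe set and Socs3 2.

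Growth factors, stretch, calcium and stress reach these genes through MAP kinases and calcium-dependent kinases, which switch on transcription factors already present in the nucleus, such as serum response factor with its Elk partners, and CREB. Many of the products are transcription factors that act on a later set of genes, and others end the signal by removing phosphate from the kinases or by destroying short-lived mRNAs. In the heart they are known to be induced by load, ischaemia and neurohormones.

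Samples were the right ventricle with the interventricular septum of 9 adult mice, on a mixed background that the labels give as C57BL/6, with 1 Affymetrix array per mouse. The 5 hearts called wild type have the genotype Ezh2f/f in the genotype field and f/wt in the titles, which were not reconciled, and no Cre. The 4 Ezh2-deficient hearts have Ezh2f/f and Mef2cAHF::Cre, in which Mef2c's anterior heart field enhancer drives Cre. This enhancer is active in embryonic progenitors of the right ventricle and septum, so that other cells of the tissue keep the gene. All Ezh2-deficient hearts and no wild-type heart carried Cre, so Cre and the loss of Ezh2 cannot be told apart. Ezh2 is the methyltransferase of Polycomb repressive complex 2. Values are log2 expression values, and a difference is the Ezh2-deficient mean less the wild-type mean of these, with the standard error (SE) from limma. A lower count of cells of a type and less RNA per cell cannot be told apart in such bulk tissue.

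The 9 arrays had medians between 7.19 and 7.25 and correlated pairwise with a Pearson's r of 0.990 to 0.997. Wild-type hearts 4 and 5 stood apart on the first principal component, with 30.7% of the variance, and Ezh2-deficient heart 3 on the second, with 24.0%. Sample titles carry the letter e in wild-type hearts 1 and 2 and Ezh2-deficient hearts 1 and 4, and the letter x in the other 5. A prime follows the x in wild-type hearts 3 and 5 and Ezh2-deficient heart 2. The labels do not say what the letter or the prime means. Ezh2 itself read 8.73 ± 0.12 (SD, n = 5) in wild-type and 8.88 ± 0.11 (SD, n = 4) in Ezh2-deficient hearts, with overlap. Where its probes lie relative to the deleted part was not examined, so this probe set does not check the labels. Y-linked genes were low in 1 wild-type heart, heart 4, and 2 Ezh2-deficient hearts, hearts 1 and 3, which are females by that measure. Wild-type heart 4 and Ezh2-deficient heart 3 are also the letter x hearts without the prime. Within letter x, prime and sex therefore cannot be told apart.

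Immediate early genes read higher on average in Ezh2-deficient hearts in 32 of 34 cases, where 47.1% of all 28815 probe sets did, and the median difference was 0.25 against -0.01 over all probe sets. None of the 34 passed an adjusted p of 0.05 in limma with Benjamini-Hochberg adjustment over all probe sets, where 0.0347% of probe sets, 10 in number, passed. The smallest adjusted p among the genes was 0.202, for Jund, and the largest 0.971, for Fosl1. At an unadjusted p under 0.05, 9 of the 34 genes read higher, against 5.23% of all probe sets, and 0 read lower, against 5.45%. The 9 genes were Jund, Maff, Egr1, Egr2, Egr3, Klf4, Klf10, Ier2 and Ier5. In 5 of them, Jund, Maff, Egr1, Egr2 and Ier2, the lowest Ezh2-deficient heart lay above the highest wild-type heart, which held for 1.79% of all probe sets. The genes are brighter than most, with 28 of 34 at or above the median of the probe set means. With probe sets below that median left out, 7 genes had an unadjusted p under 0.05, all higher. The share of probe sets in either direction was then 15.5%, against 10.7% with none left out. Genes of the list share inducing signals and so are not independent of each other.

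**Figure D1:**
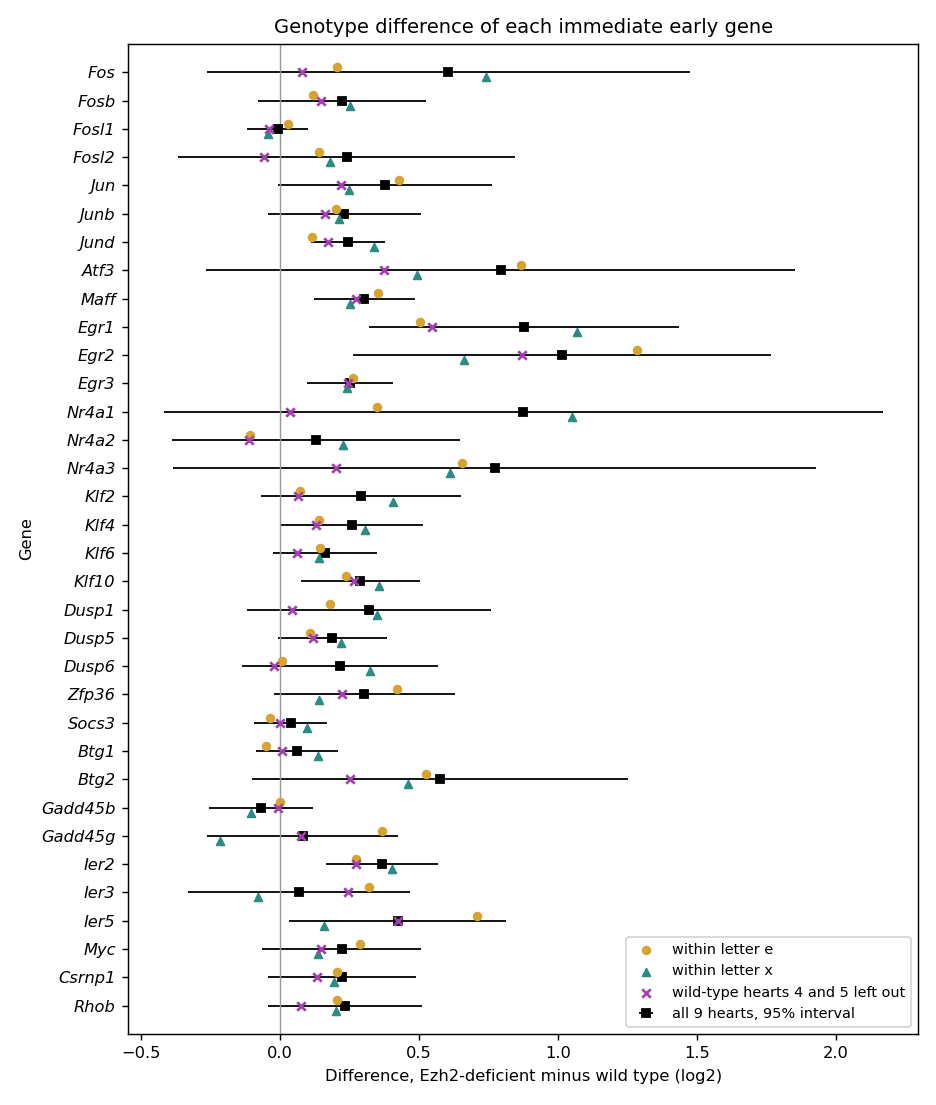
Genotype differences on the log2 scale (x axis, Ezh2-deficient minus wild type) for each of the 34 immediate early genes (y axis), with limma's 95% interval from all 9 hearts and, as separate symbols, the difference inside each title letter and after leaving out wild-type hearts 4 and 5. Egr2 at 1.01 and Egr1 at 0.88 lie among the farthest to the right with intervals above 0, while Nr4a1 at 0.88 and Atf3 at 0.79 have intervals that reach below 0.

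The Egr genes, zinc finger factors that bind GC-rich promoter sequence, had the largest difference of the groups by the mean over members, 0.71 against 0.59 for the Nr4a genes. By the median over members the Nr4a genes came first, with 0.83 against 0.75. Egr1, which many growth and stress signals induce, read 8.23, 8.06, 7.50, 6.97 and 7.23 in wild-type hearts 1 to 5 and 8.83, 8.25, 8.35 and 8.47 in Ezh2-deficient hearts 1 to 4. All 4 Ezh2-deficient hearts lay above all 5 wild-type hearts, narrowly so for heart 2. The difference was 0.88 (SE 0.25, 95% interval 0.32 to 1.44), a fold of 1.84, with an adjusted p of 0.263 in limma and an exact two-sided permutation p of 0.0317. Hearts with letter e gave 0.50 and those with letter x 1.07.

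Egr2, a factor also known for its part in myelination and hindbrain patterning, read 7.30, 7.28, 6.97, 6.82 and 6.83 in the wild-type hearts and 9.31, 7.71, 7.36 and 7.84 in the Ezh2-deficient hearts. Ezh2-deficient heart 1 stood far above the rest, and the groups did not overlap. The mean difference of 1.01 (SE 0.34) was the largest among the 34 genes, a fold of 2.02, with an adjusted p of 0.332 in limma and an exact permutation p of 0.00794, the smallest that 5 hearts against 4 allow. Without Ezh2-deficient heart 1 the difference was 0.60. In this section, a single heart left out is the one whose omission gave the lowest difference. The highest came without Ezh2-deficient heart 3 for Egr2, at 1.25, Atf3, at 1.13, Jun, at 0.50, and Btg2, at 0.77.

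Egr3, a close relative with the same DNA-binding fingers, read 7.81, 8.05, 7.98, 7.93 and 7.93 in wild-type and 8.34, 8.12, 8.26 and 8.05 in Ezh2-deficient hearts. The lowest Ezh2-deficient heart was level with the highest wild-type heart. Its difference of 0.25 (SE 0.07, adjusted p 0.252 in limma) took nearly the same size in both letters, 0.26 in e and 0.24 in x. Averaged over the 3 genes as log2 value minus the wild-type mean, the Ezh2-deficient hearts lay at 0.46 to 1.30 and the wild-type hearts at -0.29 to 0.27. That mean differed by 0.71 over all hearts, by 0.68 in letter e, by 0.66 in letter x and by 0.55 when wild-type hearts 4 and 5 were left out.

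The promoter of Egr2 is shown because this gene had the largest difference and its window, 250 bases before to 50 after the start in RefSeq (GRCm38.p6, chr10:67537619-67537918, plus strand), holds the motif that serum response factor binds. The table gave 5 windows for Egr2 and 3 for Maff, and the one with the most motif matches is printed. Capitals mark the CArG box and 2 copies of the core CRE motif TGACG, the second on the other strand.
Egr2: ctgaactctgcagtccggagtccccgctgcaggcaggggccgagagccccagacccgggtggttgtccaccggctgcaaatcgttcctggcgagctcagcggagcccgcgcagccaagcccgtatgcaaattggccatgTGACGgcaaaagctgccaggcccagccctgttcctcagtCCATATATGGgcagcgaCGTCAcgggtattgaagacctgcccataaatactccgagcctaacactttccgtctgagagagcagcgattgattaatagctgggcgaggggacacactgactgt

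Windows were found for 28 of the 34 genes, 25 of them with 1 window, and the table held none for Fosl1, Egr1, Egr3, Klf10, Ier2 and Myc. Both strands were searched for 6 motifs, and a gene counted as holding one where any of its windows did. A CArG box was present in 3 of 28 genes, Egr2, Dusp5 and Zfp36, against 1.81% of 27025 genes with a window. Dusp5 held it in 2 adjoining copies, CCATATTTGG and CCTTATATGG, and Zfp36 as CCATAAAAGG. The full CRE, TGACGTCA, was found in Maff, Dusp1 and Btg2, 3 of 28 against 2.03% of genes, and its core TGACG, which the full motif contains, in 16 of 28 against 23.0%. The EGR motif GCGNGGGCG lay in 11 of 28 against 6.27%, the AP-1 motif TGANTCA in 1, Csrnp1, against 8.97%, and the NBRE AAAGGTCA in 0 against 1.70%. These matches describe the letters of the windows and are no evidence of binding in these hearts.

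AP-1 is a dimer of a FOS with a JUN protein, in which ATF and small MAF proteins can also take part. Of its 9 genes, 8 had a higher mean in Ezh2-deficient hearts, and the members differed in how far the hearts overlapped. Jund, the JUN subunit with high resting levels, read 9.08, 9.15, 9.02, 8.93 and 8.87 in wild-type and 9.22, 9.24, 9.32 and 9.23 in Ezh2-deficient hearts. The Ezh2-deficient values lay close together, above every wild-type heart. The difference was 0.24 (SE 0.06), a fold of 1.18, with an adjusted p of 0.202 in limma and an exact permutation p of 0.0159. It was 0.12 in letter e, 0.34 in letter x and 0.17 without wild-type hearts 4 and 5.

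Maff, a small MAF protein that has no activation domain of its own, read 6.57, 6.48, 6.60, 6.67 and 6.28 in wild-type and 6.94, 6.69, 6.85 and 6.82 in Ezh2-deficient hearts. The groups were apart by a narrow margin, between wild-type heart 4 and Ezh2-deficient heart 2. Its difference of 0.30 (SE 0.08, adjusted p 0.239 in limma) was 0.35 in letter e and 0.25 in letter x, and 0.27 when wild-type hearts 4 and 5 were left out.

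Fos, the classical immediate early gene, read 8.31, 8.69, 7.70, 6.91 and 6.91 in wild-type and 8.85, 7.94, 7.89 and 8.57 in Ezh2-deficient hearts. The 4 hearts with letter e were the 4 highest, in both genotypes, and wild-type hearts 4 and 5 were the lowest. The genotype difference was 0.61 (SE 0.39, adjusted p 0.613 in limma) and 0.08 without those 2 hearts. Promoters are shown for Maff, whose values separated by genotype, and Fos, whose values separated by title letter (GRCm38.p6, Maff chr15:79347270-79347569 and Fos chr12:85473640-85473939, both plus strand). Capitals mark an EGR motif and the full CRE in Maff and 2 CRE cores in Fos. Motifs of either gene outside these windows, a CArG box among them, were not searched for.
Maff: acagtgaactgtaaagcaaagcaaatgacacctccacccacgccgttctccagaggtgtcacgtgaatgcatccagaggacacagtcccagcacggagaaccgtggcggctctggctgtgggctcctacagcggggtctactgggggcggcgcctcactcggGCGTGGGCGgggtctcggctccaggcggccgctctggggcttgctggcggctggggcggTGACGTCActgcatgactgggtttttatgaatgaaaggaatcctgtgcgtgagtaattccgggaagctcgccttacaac
Fos: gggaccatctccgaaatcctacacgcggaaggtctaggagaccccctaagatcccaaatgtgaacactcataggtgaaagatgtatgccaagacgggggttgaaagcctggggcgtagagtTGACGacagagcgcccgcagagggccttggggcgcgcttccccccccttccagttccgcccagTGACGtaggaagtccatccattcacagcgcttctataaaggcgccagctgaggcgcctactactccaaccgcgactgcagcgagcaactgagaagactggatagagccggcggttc

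Atf3, a stress-induced factor of the CREB family, had the widest spread of the AP-1 genes. It read 8.57, 8.91, 7.93, 7.34 and 7.50 in wild-type and 10.17, 8.32, 7.84 and 9.04 in Ezh2-deficient hearts. Again the letter e hearts were above the letter x hearts, with Ezh2-deficient heart 1 on top. The genotype difference of 0.79 (SE 0.47, adjusted p 0.588 in limma) was 0.35 without Ezh2-deficient heart 1. Jun, the main partner of FOS, read 9.80, 9.86, 9.59, 9.28 and 9.41 in wild-type and 10.38, 9.75, 9.60 and 10.13 in Ezh2-deficient hearts, a difference of 0.38 (SE 0.17, adjusted p 0.475 in limma) that was 0.24 without Ezh2-deficient heart 1. Fosl2, a longer-lived FOS relative, read 9.07, 9.43, 8.72, 8.27 and 8.38 in wild-type and 9.61, 8.70, 8.58 and 9.17 in Ezh2-deficient hearts. Its difference was 0.24 (SE 0.27) over all hearts, -0.06 without wild-type hearts 4 and 5 and 0.04 without Ezh2-deficient heart 1. Fosb and Junb overlapped between groups, with differences of 0.22 (SE 0.14) and 0.23 (SE 0.12), which were 0.11 and 0.10 without Ezh2-deficient heart 1. Fosl1 varied little, at 6.93 ± 0.07 (SD, n = 5) against 6.93 ± 0.06 (SD, n = 4). The mean of the 9 genes differed by 0.33, and by 0.15 without wild-type hearts 4 and 5 and 0.20 without Ezh2-deficient heart 1.

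**Figure D2:**
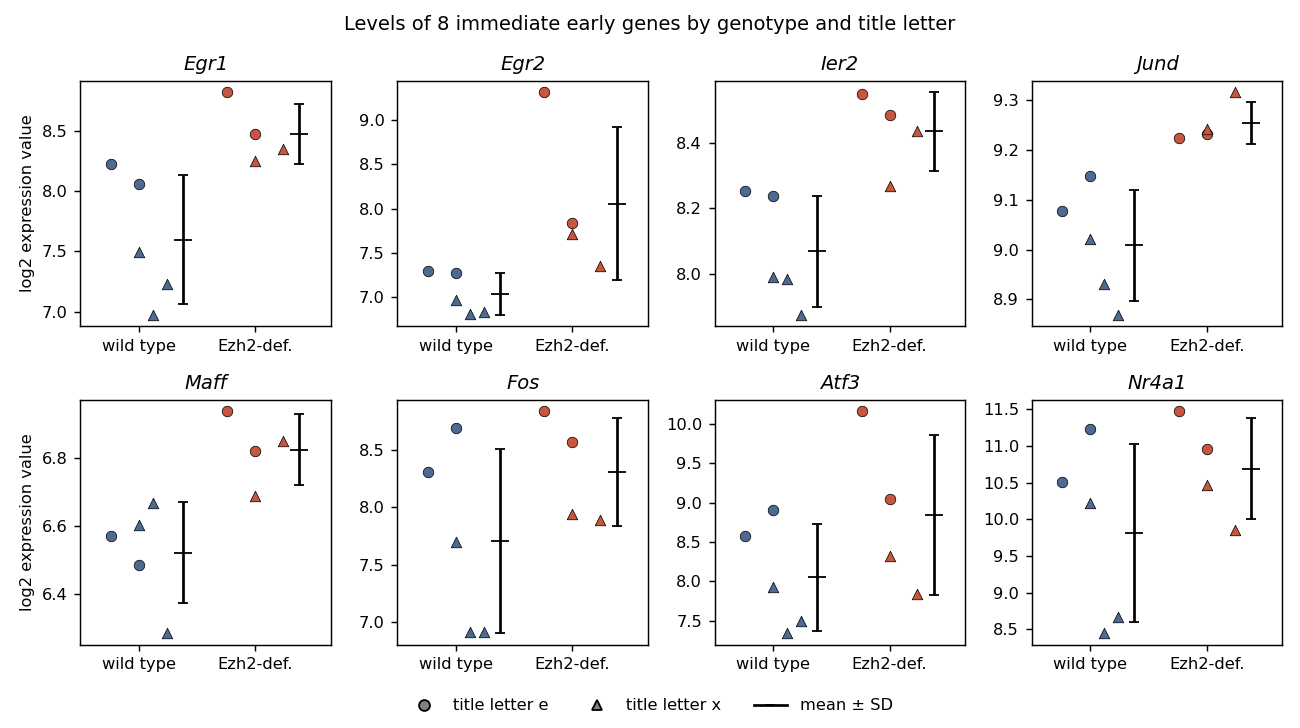
Levels of 8 immediate early genes (y axis, log2 expression value) in wild-type and Ezh2-deficient hearts, with 1 point per heart, title letter e and x as different symbols, and bars for mean ± SD. Egr1 and Egr2 separate by genotype, whereas the letter e hearts of Fos lie between 8.31 and 8.85 in both genotypes and its letter x hearts between 6.91 and 7.94.

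The Nr4a orphan receptors, nuclear receptors that act without a known classical ligand and are regulated by their own transcription, include the 2 genes of the set with the widest spread, Nr4a1 and Nr4a3, whose SD within genotype was 1.02 and 0.91. Nr4a1 read 10.51, 11.23, 10.22, 8.45 and 8.67 in wild-type and 11.48, 10.46, 9.86 and 10.96 in Ezh2-deficient hearts. The SD over the wild-type hearts was 1.21 (n = 5), and wild-type heart 2 lay above 3 of the 4 Ezh2-deficient hearts. The difference was 0.88 (SE 0.58, adjusted p 0.624 in limma), and it was 0.04 without wild-type hearts 4 and 5.
Nr4a1 had 4 CRE cores and 1 EGR motif in its window (GRCm38.p6, chr15:101266596-101266895, plus strand), in capitals here, and is shown as the gene with the widest spread.
Nr4a1: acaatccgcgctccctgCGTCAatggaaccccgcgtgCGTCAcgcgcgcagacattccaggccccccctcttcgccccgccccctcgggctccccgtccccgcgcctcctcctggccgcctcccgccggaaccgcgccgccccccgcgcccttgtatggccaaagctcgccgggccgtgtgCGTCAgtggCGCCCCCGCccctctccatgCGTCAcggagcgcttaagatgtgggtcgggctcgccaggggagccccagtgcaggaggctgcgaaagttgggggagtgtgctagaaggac

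Nr4a3 was also lowest in wild-type hearts 4 and 5 and highest in Ezh2-deficient heart 1, with 7.79, 8.48, 7.34, 6.33 and 6.55 in wild-type and 9.12, 7.81, 6.89 and 8.45 in Ezh2-deficient hearts, a difference of 0.77 (SE 0.52, adjusted p 0.629 in limma) that was 0.42 without Ezh2-deficient heart 1 and 0.20 without wild-type hearts 4 and 5. Nr4a2 read 6.97, 7.86, 6.90, 6.52 and 6.78 in wild-type and 7.30, 6.93, 6.98 and 7.32 in Ezh2-deficient hearts. Its highest value was in wild-type heart 2, and its difference of 0.13 split into -0.11 in letter e and 0.23 in letter x. The mean of the 3 genes differed by 0.59 over all hearts and by 0.04 without wild-type hearts 4 and 5.

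Klf factors are zinc finger proteins that bind GC-rich and CACCC sequence, and Klf2 and Klf4 are known as flow-induced genes of endothelium. Klf10, which TGF-beta induces, read 7.79, 7.68, 7.95, 7.91 and 7.58 in wild-type and 8.12, 8.14, 8.20 and 7.83 in Ezh2-deficient hearts. Ezh2-deficient heart 4 fell within the wild-type range and the other 3 lay above it. The difference was 0.29 (SE 0.10, adjusted p 0.332 in limma, exact permutation p 0.0397), with 0.24 in letter e and 0.36 in letter x. Klf2 read 9.84, 10.11, 9.70, 9.42 and 9.22 in wild-type and 9.95, 9.86, 9.84 and 10.14 in Ezh2-deficient hearts, a difference of 0.29 (SE 0.16) that was 0.07 without wild-type hearts 4 and 5. Klf4 read 8.64, 8.95, 8.56, 8.39 and 8.39 in wild-type and 9.02, 8.72, 8.78 and 8.85 in Ezh2-deficient hearts. The difference was 0.26 (SE 0.11, adjusted p 0.464 in limma, exact permutation p 0.103). Klf6 differed by 0.16 (SE 0.08). All 12 endothelial markers had higher means in Ezh2-deficient hearts, and their summed level, as log2, was 13.80 to 14.25 in wild-type and 14.22 to 14.34 in Ezh2-deficient hearts. Higher means were not particular to endothelium: 12 of 12 fibroblast, 10 of 10 macrophage and 6 of 6 epicardial markers had them, against 1 of 10 cardiomyocyte and 3 of 7 neutrophil markers. The part of endothelial cells in the Klf values was not tested.

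The feedback phosphatases remove phosphate from MAP kinases, Dusp1 in the nucleus and Dusp6 with a preference for ERK in the cytoplasm. Dusp1 read 11.74, 11.67, 11.51, 10.87 and 11.02 in wild-type and 11.93, 11.33, 11.64 and 11.84 in Ezh2-deficient hearts. Wild-type hearts 4 and 5 were again the lowest, and the other 7 hearts were mixed. The difference was 0.32 (SE 0.20, adjusted p 0.599 in limma) and 0.04 without these 2 hearts. Dusp6 read 9.59, 9.28, 9.26, 8.76 and 8.81 in wild-type and 9.48, 9.23, 9.31 and 9.40 in Ezh2-deficient hearts, a difference of 0.21 (SE 0.16) that came to 0.01 in letter e and 0.32 in letter x. Dusp5, an ERK phosphatase of the nucleus, differed by 0.19 (SE 0.09, adjusted p 0.480 in limma). The mean of the 3 genes differed by 0.24, and by 0.05 without wild-type hearts 4 and 5.

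Zfp36, which leads mRNAs with AU-rich elements to decay, read 8.96, 9.05, 8.83, 8.64 and 8.84 in wild-type and 9.63, 8.92, 8.90 and 9.22 in Ezh2-deficient hearts. The difference of 0.30 (SE 0.15) was 0.15 without Ezh2-deficient heart 1. Socs3, an inhibitor of cytokine receptors that signal through JAK kinases, differed by 0.04, with the same sign at its other probe set. Btg2, an antiproliferative gene that p53 can induce, read 9.78, 9.96, 9.35, 8.79 and 8.98 in wild-type and 10.67, 9.63, 9.38 and 10.13 in Ezh2-deficient hearts, a difference of 0.58 (SE 0.30, adjusted p 0.537 in limma) that was 0.34 without Ezh2-deficient heart 1 and 0.25 without wild-type hearts 4 and 5. Its relative Btg1 differed by 0.06. The stress sensors Gadd45b and Gadd45g differed by -0.07 and 0.08. Gadd45g read 8.17, 8.17, 8.06, 8.06 and 8.18 in wild-type and 8.59, 8.04, 7.72 and 8.48 in Ezh2-deficient hearts, so that the Ezh2-deficient hearts with letter e lay above, and those with letter x below, every wild-type heart.

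Ier2, a small nuclear protein induced by serum, was among the genes whose groups did not overlap. It read 8.25, 8.24, 7.99, 7.98 and 7.88 in wild-type and 8.55, 8.27, 8.44 and 8.48 in Ezh2-deficient hearts. The gap between wild-type heart 1 and Ezh2-deficient heart 2 was small. The difference was 0.37 (SE 0.09), a fold of 1.29, with an adjusted p of 0.205 in limma and an exact permutation p of 0.0238. Ier5 read 8.16, 8.06, 8.31, 8.27 and 8.10 in wild-type and 9.23, 8.57, 8.19 and 8.41 in Ezh2-deficient hearts, a difference of 0.42 (SE 0.18) that was 0.21 without Ezh2-deficient heart 1. Ier3, an early gene with roles in cell survival, read 7.80, 7.79, 8.17, 8.66 and 8.06 in wild-type and 8.18, 8.48, 7.95 and 8.04 in Ezh2-deficient hearts, with wild-type heart 4 highest. Myc, Csrnp1 and Rhob, a growth factor-induced transcription factor, a nuclear protein and a small GTPase, differed by 0.22 to 0.23, each with overlap. Without Ezh2-deficient heart 1 the difference was 0.10 for Myc and 0.15 for Csrnp1, and for Rhob it was 0.15 without wild-type heart 4 and 0.08 without wild-type hearts 4 and 5.

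**Figure D3:**
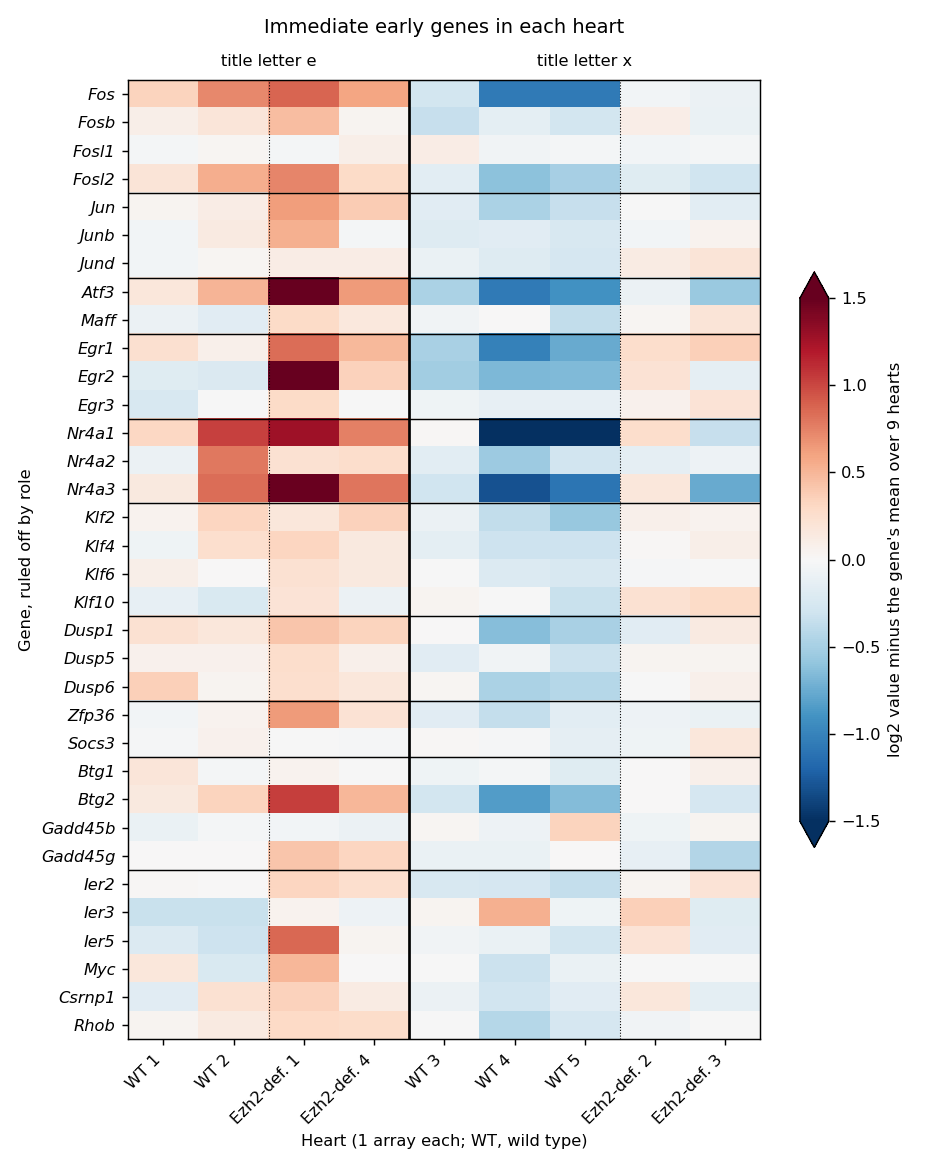
Log2 value minus the gene's mean over the hearts (colour) for the 34 immediate early genes (down the side, ruled off by role) in each of the 9 hearts (columns, title letter e on the left and x on the right). Ezh2-deficient heart 1 holds the highest value of the 9 hearts in 24 genes and wild-type hearts 4 and 5 the lowest in 28.

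Extreme values were unevenly shared among the hearts. Ezh2-deficient heart 1 had the highest of the 9 values in 24 of 34 genes, where it was the highest for 8.33% of all probe sets. Wild-type heart 4 had the lowest in 18 genes and wild-type heart 5 in 10, against 17.7% and 14.2% of probe sets. By their Y-linked genes, Ezh2-deficient heart 1 and wild-type heart 4 were female and wild-type heart 5 was not. The mean over all 34 genes, as log2 value minus the wild-type mean, was 0.18, 0.30, 0.02, -0.25 and -0.24 in wild-type and 0.66, 0.18, 0.10 and 0.37 in Ezh2-deficient hearts. The 2 groups overlapped, and their difference of 0.33 was 0.17 without wild-type hearts 4 and 5 and 0.22 without Ezh2-deficient heart 1. Without wild-type hearts 4 and 5, 28 genes still had a higher mean in Ezh2-deficient hearts. The signed difference was lower than over all hearts in 31 genes. Fosl1, at -0.0412 against -0.0085, is counted among them. Of the genes with a higher mean over all hearts, 15 had less than 0.5 times that difference. Because wild-type heart 4 or 5 was the lowest in 28 genes, leaving both out largely fixes such a fall in advance. Shares of all probe sets were not computed for these counts. The median difference without these hearts was 0.14, against -0.01 over all probe sets. At an unadjusted p under 0.05, 6 genes then read higher, Jund, Maff, Egr1, Egr3, Klf10 and Ier2, against 3.91% of all probe sets. The genes varied more between hearts of 1 genotype than most: their median SD within genotype was 0.24 against 0.10 over all probe sets, and 15 of 34 lay above the 95th percentile of 0.27.

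The letter in the sample titles gave a further comparison. This one, letter e minus letter x with genotype in the same fit, was chosen after the values were seen. Over the 34 genes the median difference was 0.29 against 0.001 over all probe sets. At an unadjusted p under 0.05, 22 genes read higher with letter e, against 5.88% of all probe sets, and 0 read higher with letter x, against 7.1%. No probe set of 28815 passed an adjusted p of 0.05 in limma, although 3739 had an unadjusted p under 0.05, and the smallest adjusted p among the genes was 0.0895, for Fosl2. In 11 genes every letter e heart lay above every letter x heart, against 1.89% of all probe sets: Fos, Fosl2, Jun, Atf3, Nr4a1, Klf6, Dusp1, Dusp5, Zfp36, Btg2 and Rhob. Letter e was higher in 28 of 34 genes among wild-type hearts, in 28 among Ezh2-deficient hearts, and in 25 in both. The matching shares of all probe sets were not computed.

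The largest letter differences were in Nr4a1, at 1.44 (SE 0.37), Nr4a3, at 1.41 (SE 0.27), Atf3, at 1.32 (SE 0.23), and Fos, at 1.09 (SE 0.19). Egr3, Jund, Maff and Klf10, by contrast, differed between the letters by -0.01, 0.07, 0.06 and -0.13. For Jund the genotypes went opposite ways. Its wild-type mean was 9.11 with letter e and 8.94 with x, and its Ezh2-deficient mean 9.23 with e and 9.28 with x. Egr1 and Ier2 had letter differences of 0.66 (SE 0.14, adjusted p 0.171 in limma) and 0.24 (SE 0.05, adjusted p 0.177).

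**Figure D4:**
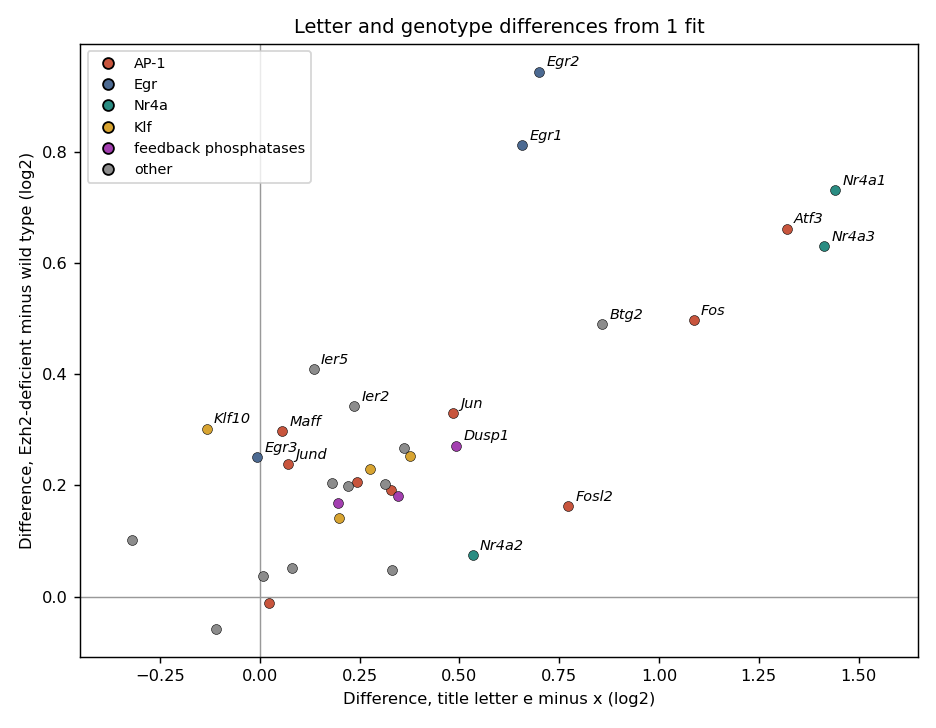
Differences on the log2 scale by title letter (x axis, e minus x) and by genotype (y axis, Ezh2-deficient minus wild type), from 1 fit over 9 hearts, with 1 point for each of the 34 immediate early genes. Fos, Atf3, Nr4a1 and Nr4a3 lie far to the right, at 1.09 to 1.44, while Egr3, Maff and Jund lie near 0 on the x axis at genotype differences of 0.24 to 0.30.

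With the letter as a block, the genotype difference was estimated within letters. The median over the 34 genes was then 0.23 against -0.01 over all probe sets. No gene passed an adjusted p of 0.05, where 0.059% of probe sets did, and the smallest were 0.0790 for Ier2 and 0.0869 for Egr1 in limma. At an unadjusted p under 0.05, 18 genes read higher, against 5.99% of all probe sets and against 9 genes without the block. The letter was taken up after the values were seen, and 22 of these genes differed by letter at that threshold. Their median SD was 0.17 with the block and 0.24 without it. The rise from 9 to 18 is therefore not independent of that choice. The median difference was 0.21 in letter e, with 2 hearts against 2, and 0.24 in letter x, with 3 against 2. Over all probe sets these medians were -0.0085 and 0.001. In 27 genes the mean was higher in both letters and in 6 it was higher in 1 letter and lower in the other. How many of all probe sets did so was not computed.

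The levels of circadian clock genes are given beside the letter result because their part in it was not tested. Of 14 clock genes measured of 15 listed, 10 separated the letters with no overlap, 8 higher with letter x, where 2.06% of all probe sets did so, and 2 with letter e, where 1.89% did. None of the 14 passed an adjusted p of 0.05 for the letter in limma. Arntl, the activator at the core of the clock, read 8.43, 7.98, 6.68, 6.68 and 6.75 in wild-type and 8.04, 6.99, 7.46 and 8.43 in Ezh2-deficient hearts, and Dbp, an output gene, 8.78, 9.47, 10.59, 10.64 and 10.48 in wild-type and 9.40, 10.46, 10.25 and 9.26 in Ezh2-deficient hearts. Both genes were named after their values were seen. Arntl was higher with letter e by 1.28 (SE 0.15, adjusted p 0.0599 in limma) and Dbp lower by a difference of -1.25 (SE 0.14). By genotype 0 of the 14 reached an unadjusted p under 0.05, with a median difference of -0.16. The labels give no time of day.

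**Figure D5:**
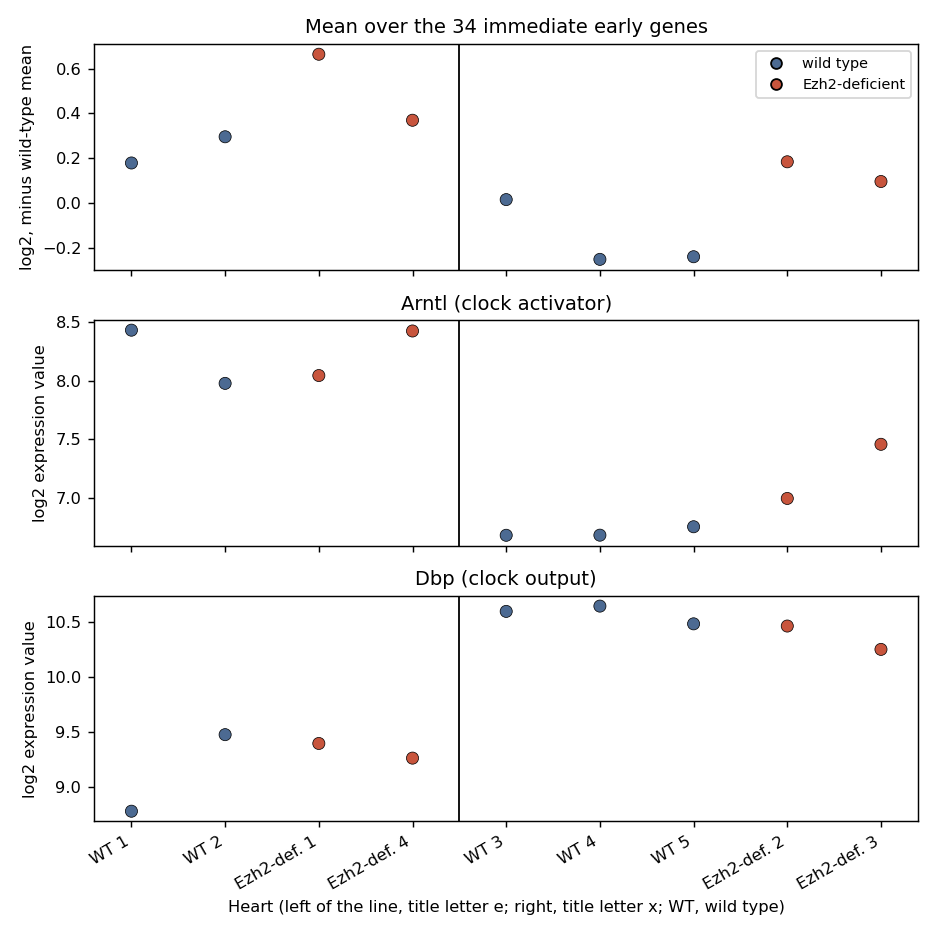
Values in each heart (x axis, letter e left of the line and letter x right) for the mean over the 34 immediate early genes, as log2 value minus the wild-type mean, and for the clock genes Arntl and Dbp as log2 expression value. Arntl lies between 7.98 and 8.43 in letter e hearts and between 6.68 and 7.46 in letter x hearts, and the mean of the 34 genes between 0.18 and 0.66 in letter e hearts and between -0.25 and 0.18 in letter x hearts.

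Kinases and factors that act upstream of these genes had 31 members measured of 37 listed. Of these, 11 were higher and 20 lower on average in Ezh2-deficient hearts. The list had a median difference of -0.04; 1 read higher and 3 lower at an unadjusted p under 0.05, where 5.23% and 5.45% of all probe sets did, and 0 passed the adjusted threshold. The 3 with the smallest p were Rps6ka5, a kinase of histone H3 and CREB, at -0.22 (SE 0.08), Mapk14, the stress kinase p38 alpha, at -0.14 (SE 0.05), and Camk4, a calcium-dependent kinase, at 0.22. Further feedback regulators had a higher mean in 19 of 24, with a median difference of 0.05. At an unadjusted p under 0.05, 4 read higher and 1 lower, beside 5.23% and 5.45% of all probe sets, and 0 passed after adjustment. Rgs2, which shortens signalling of Gq-coupled receptors, was the one that read lower, at -0.38 (SE 0.08, adjusted p 0.143 in limma), with no overlap between groups.

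Other early and delayed response genes, 48 measured of 50 listed, had a higher mean in 40, with a median difference of 0.10. At an unadjusted p under 0.05, 10 of the 48 read higher, beside 5.23% of all probe sets, and 2 lower, beside 5.45%, and 0 passed after adjustment. Ptgs2, the inducible cyclooxygenase, read 7.11, 7.17, 7.00, 7.05 and 7.06 in wild-type and 8.82, 8.06, 7.81 and 7.48 in Ezh2-deficient hearts, a difference of 0.97 (SE 0.22, adjusted p 0.157 in limma) with 1.01 in letter e and 0.90 in letter x. Ccn2, a matricellular gene that TGF-beta and stretch induce, read 10.34, 9.99, 10.07, 9.86 and 9.95 in wild-type and 11.51, 11.12, 10.76 and 10.73 in Ezh2-deficient hearts, a difference of 0.99 (SE 0.16, adjusted p 0.101 in limma). In both genes every Ezh2-deficient heart lay above every wild-type heart.

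Other stress responses are given for comparison, with the same shares of all probe sets, 5.23% higher and 5.45% lower, as background. Heat shock genes had a median difference of 0.08 (13 measured of 15 listed, 2 higher and 1 lower at an unadjusted p under 0.05), hypoxia genes 0.07 (13 of 13, 1 and 1) and glucocorticoid-induced genes 0.04 (10 of 11, 0 and 1). By letter, at an unadjusted p under 0.05, beside 5.88% of all probe sets with e higher and 7.1% with x higher, 7 heat shock genes read higher with e and 1 with x, 3 hypoxia genes with e and 2 with x, and 3 glucocorticoid genes with e and 1 with x. None of these lists had a gene past the adjusted threshold for genotype in limma.

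No cell type marker passed the adjusted threshold in limma, and the smallest adjusted p was 0.128, for Mfap5 of the fibroblast list. Fibroblast markers, led by collagens, had a higher mean in Ezh2-deficient hearts in 12 of 12, and their summed level, as log2, was 14.24 to 14.65 in wild-type and 14.76 to 15.02 in Ezh2-deficient hearts, with no overlap. Macrophage markers were higher in mean in 10 of 10, at 12.26 to 12.79 against 12.58 to 13.01, and cardiomyocyte markers in 1 of 10, at 17.16 to 17.21 against 17.05 to 17.18. Erythrocyte markers ranged from 9.15 to 10.26 and from 9.81 to 11.86, the last in Ezh2-deficient heart 3, atrial markers from 12.24 to 13.58 and from 12.94 to 14.29. Higher means were also found for 6 of 8 smooth muscle, 3 of 7 neutrophil, 6 of 7 lymphocyte, 6 of 6 epicardial and 5 of 8 skeletal muscle markers. No marker can be called absent, since the values hold no detection call. By letter, fibroblast levels overlapped, at 14.47 to 14.84 with e and 14.24 to 15.02 with x. The part of cell composition in the differences of the immediate early genes was not tested.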

How the data were processed

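RNA from 9 hearts, isolated with TRIzol per the labels' protocols, was labelled with biotin and hybridised to 1 Affymetrix array each. The deposited table holds log2 expression values for 28815 probe sets, which the authors computed by RMA in Affymetrix Power Tools according to the submitters' processing notes. Neither versions nor settings are given in the sources used here. RMA commonly sets arrays to 1 distribution, which hides a shift shared by all genes, and leaves no detection call. Other per-sample columns numbered 0. The platform annotation supplied gene names: 21780 had 1 gene symbol, 1605 several and 5430 none, and 21689 were found in a reference gene table.

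All probe sets were fitted with limma 3.58.1 (lmFit and eBayes, R 4.3.3), two-sided, with no term but genotype, with Benjamini-Hochberg adjustment over all of them and a threshold of 0.05. Counts at an unadjusted p are given beside the share of all probe sets. Single genes were also tested by exact permutation over all assignments of 4 hearts out of 9. Of those not given above, the exact permutation p was 0.0159 for Maff and Egr3 and 0.0317 for Ier5. It was 0.238 for Fos, 0.222 for Atf3, 0.119 for Jun, 0.270 for Nr4a1, 0.246 for Nr4a3, 0.222 for Dusp1 and 0.143 for Btg2. The median SE of a difference was 0.0674. The number of arrays limits the precision, and p-values in limma set a difference against the spread between these mice within a genotype. In the fit with genotype alone, that spread includes any difference by title letter. Replicate numbers follow sample order. The fit was tested on simulated data.

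Every member was to be named, with at most 3 genes of each pathway list by smallest p, markers a result turns on, and Ezh2; Arntl and Dbp were added. The members and lists were chosen with earlier results of these data known. Alternatives were the title letter, letter with prime or mean Y-linked level in the fit, a further quantile normalization, centring, array weights, a trended prior, a filter on dim probe sets, the median over members, and arrays left out. Promoters are RefSeq's, searched on both strands.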

Additional observations from a re-analysis of the deposited data

Results flagged for a closer look

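In 4 of 68 groups examined (34 genes in each genotype) 1 heart lay far from the others relative to the range of its group, where chance gives about 1 in 20. A small gap in a tight group also counts by this rule. Among the 4 Ezh2-deficient hearts, heart 1 was flagged as highest for Junb, at 7.65, for Dusp5, at 8.49 beside 8.26 to 8.30 in the rest, and for Myc, at 7.68. Heart 4 was flagged for Fosl1, at 7.01 beside 6.89 to 6.90 in the rest, a small gap. For Fosl1, wild-type heart 3 read higher still, at 7.04. These are log2 expression values.

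For Gadd45g the genotype difference went in opposite directions in the 2 title letters, 0.37 in letter e and -0.22 in letter x. The first minus the second was 0.58 in limma, with an unadjusted p of 0.00314 and an adjusted p of 0.732.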

How the results depend on the processing

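The count of 10 probe sets past the adjusted threshold was 17 with arrays centred on their medians, 17 with the letter block, 27 with letter and prime as block, 3 within letter e, 3 with the Y-linked level as covariate, 37 with array weights, 17 with dim probe sets left out and 5 without wild-type hearts 4 and 5. Leaving out 1 array in turn gave 3 to 15. The 9 immediate early genes at an unadjusted p under 0.05, beside 10.7% of all probe sets in either direction, were 18 with the letter block, beside 12.2%, 20 with letter and prime as block, beside 12.5%, and 17 with array weights, beside 13.0%. They were 11 within letter e, beside 4.33%, 10 within letter x, beside 16.2%, and 9 with a trended prior, beside 10.5%. They were 8 with quantile normalization, beside 11.1%, and 8 with centring, beside 11.3%. They fell to 7 with the Y-linked covariate, beside 9.06%, to 7 with dim probe sets left out, beside 15.5%, and to 6 without wild-type hearts 4 and 5, beside 8.16%. With 1 array left out they were 7 to 18, beside 7.9% to 12.3%, with 18 without wild-type heart 2 and 14 without Ezh2-deficient heart 3. The cause was not tested. No member passed the adjusted threshold in any of 20 alternative settings, and the lowest adjusted p was 0.0644, for Egr1 within letter x in limma.

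Of 675 pairs of a gene and a setting, 652 kept the direction and 23 reversed, in 9 genes. Without wild-type hearts 4 and 5 the difference was -0.0589 for Fosl2, -0.11 for Nr4a2, -0.0212 for Dusp6 and -0.00108 for Socs3. Within letter e it was 0.0275 for Fosl1, -0.11 for Nr4a2, -0.036 for Socs3 and -0.051 for Btg1, and within letter x -0.22 for Gadd45g and -0.0807 for Ier3. With the Y-linked covariate it was 0.0106 for Fosl1, and with array weights -0.00867 for Socs3. With 1 array left out it ranged from -0.0377 to 0.019 for Fosl1, -0.0121 to 0.0663 for Socs3, -0.10 to 0.0055 for Gadd45b, -0.0446 to 0.24 for Gadd45g and -0.037 to 0.21 for Ier3. The other 25 genes did not reverse in these settings. The 6 members with a mean below the median probe set, where signal over background is least known, drop out under the dim filter. No paired analysis was possible because the replicate numbers only follow the order of the samples.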
